A study of Mus musculus with 2 samples.

Results

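The genes described here are 54 genes of G2 phase and mitosis, chosen as a list of gene symbols out of the 32285 genes in the count matrices of a single-cell RNA sequencing series on mouse leukemia. Each symbol was found once in each of the 2 matrices. By role the list held 6 genes of the CDK1 axis, 3 of ubiquitin-dependent proteolysis, 7 mitotic kinases and chromosomal passenger proteins, and 6 kinetochore and centromere genes. It also held 15 genes of the spindle and its microtubules, 4 of cytokinesis, 10 of chromosome structure and chromatin, and 3 of the nuclear envelope and transport. All 54 had at least 10 counts over both libraries, and 46 reached 20 CPM (UMI counts scaled to a common library total) in at least 1 of them.

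The cells were promyelocytes with PLZF/RARA, a fusion of a zinc finger protein with retinoic acid receptor alpha that gives an acute promyelocytic leukemia that responds poorly to retinoic acid. Both groups carried the fusion, and no cells without it were part of the comparison. One group of mice was injected intraperitoneally with 0.8 to 1 mg retinoic acid and the other with corn oil holding 10% DMSO (vehicle), each for 7 days, and a cohort held 3 to 5 mice. From leukemic bone marrow, cells positive for Cd45.2, C-Kit, Gr1 and FcγR and negative for Cd34 were sorted as late promyelocytes and loaded for droplet sequencing at a target of 6000 cells. Each group was 1 library, and the labels give neither the number of mice behind it nor the construct, strain or age. No comparison below therefore has a replicate check, differences between mice, sorts or preparations are part of every ratio, and no test was made.

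Cells enter mitosis when cyclin B binds the kinase CDK1 and the phosphatase CDC25 removes its inhibitory phosphates. Chromosomes then condense, attach through kinetochores to a spindle built by motor proteins, and separate once the anaphase-promoting complex (APC/C), activated by CDC20, marks securin and cyclin B for destruction. In the granulocyte lineage promyelocytes and myelocytes still divide, while later stages leave the cell cycle. Transcripts of these genes are made mainly in late S phase, G2 and mitosis, so their level in a sum over cells reflects both how many cells are in those phases and how much each such cell holds.

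The vehicle sums rest on 5476 filtered cells and 99107718 UMIs (unique molecular identifiers, each marking 1 captured RNA molecule), at a median of 16749.5 per cell, and the retinoic acid sums on 7140 cells and 110088247 UMIs, at a median of 14604. The libraries shared 11 cell barcodes. Cells with at most 0.1% mitochondrial UMIs numbered 144 and 490. All 10 promyelocyte markers were detected in both libraries, but Mpo, a defining one of primary granules, had 30857 counts with vehicle and 55 with retinoic acid. The erythroid, B cell and monocyte lists summed to at most 10.3 CPM in either library, and Cd3e, Cd4, Cd8a and Trbc2 were at 0 while the T and NK cell list summed to 1284 and 575 CPM, nearly all of it Nkg7. The mast cell and basophil list summed to 809 CPM with vehicle and 68.1 CPM with retinoic acid (8 of 9 and 5 of 9 markers above 0), and the eosinophil list to 126 and 34.8 CPM (8 of 9 in each). The part of these cells in the results below was not tested.

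G2/M genes are known to be controlled through the cell cycle genes homology region (TTTGAA or TTCGAA), bound by the MuvB complexes, and through CCAAT boxes, bound by NF-Y. Promoters of 47 members were found in the RefSeq table (GRCm38.p6, 250 bases before to 50 after the start of transcription). TTTGAA or TTCGAA on either strand occurred in 36 of the 47 (76.6%) against 21.7% of 27025 genes. CCAAT on either strand occurred in 36 (76.6%) against 41.1%, and at least 2 copies of it in 29 (61.7%) against 13.3%. Both kinds of motif in the same promoter were found in 29 members (61.7%) against 8.61% of genes. A match is a description of the letters and not a binding site. The 6 sequences below are the 250 bases upstream of the start for the members of highest level whose upstream bases hold both kinds, and they show how the motifs are spaced. Capitals mark the motifs in either orientation: CCAAT also reads ATTGG, and the other strand of TTTGAA reads TTCAAA. Hmgb2 lies at chr8:57511593-57511842 on the plus strand, Tubb4b at chr2:25224703-25224952 on the minus strand and Ube2c at chr2:164769679-164769928 on the plus strand. Anp32e lies at chr3:95929007-95929256 on the plus strand, Cks1b at chr3:89418292-89418541 on the minus strand and Top2a at chr11:99024190-99024439 on the minus strand.
Hmgb2: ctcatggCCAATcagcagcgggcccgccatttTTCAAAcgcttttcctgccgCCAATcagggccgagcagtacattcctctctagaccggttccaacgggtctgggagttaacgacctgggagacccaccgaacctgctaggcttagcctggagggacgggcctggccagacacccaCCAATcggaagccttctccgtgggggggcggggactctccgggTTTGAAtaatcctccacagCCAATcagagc
Tubb4b: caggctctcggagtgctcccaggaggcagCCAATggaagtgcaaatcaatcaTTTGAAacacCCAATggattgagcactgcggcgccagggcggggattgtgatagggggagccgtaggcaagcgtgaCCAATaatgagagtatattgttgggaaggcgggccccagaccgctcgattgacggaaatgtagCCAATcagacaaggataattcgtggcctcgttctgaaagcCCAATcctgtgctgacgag
Ube2c: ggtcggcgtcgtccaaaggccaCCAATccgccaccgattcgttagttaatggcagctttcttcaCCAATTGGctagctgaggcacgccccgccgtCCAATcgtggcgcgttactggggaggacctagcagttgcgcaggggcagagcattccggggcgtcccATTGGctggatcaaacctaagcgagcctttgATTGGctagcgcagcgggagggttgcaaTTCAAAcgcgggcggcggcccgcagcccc
Anp32e: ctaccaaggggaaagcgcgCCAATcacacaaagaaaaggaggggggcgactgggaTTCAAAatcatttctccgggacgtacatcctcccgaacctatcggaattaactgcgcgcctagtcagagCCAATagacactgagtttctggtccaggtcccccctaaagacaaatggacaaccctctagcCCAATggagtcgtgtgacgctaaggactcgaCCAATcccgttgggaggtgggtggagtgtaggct
Cks1b: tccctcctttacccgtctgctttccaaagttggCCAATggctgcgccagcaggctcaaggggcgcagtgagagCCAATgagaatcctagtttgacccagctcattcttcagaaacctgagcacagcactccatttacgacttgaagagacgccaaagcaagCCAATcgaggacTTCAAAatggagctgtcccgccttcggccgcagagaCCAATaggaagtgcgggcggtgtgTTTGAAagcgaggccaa
Top2a: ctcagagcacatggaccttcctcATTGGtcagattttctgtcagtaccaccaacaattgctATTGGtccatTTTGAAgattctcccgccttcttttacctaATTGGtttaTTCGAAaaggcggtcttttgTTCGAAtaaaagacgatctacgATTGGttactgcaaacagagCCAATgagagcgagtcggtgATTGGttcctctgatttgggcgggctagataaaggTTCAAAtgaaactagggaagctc
The Top2a promoter held 6 CCAAT matches and 4 of the other kind (2 TTTGAA and 2 TTCGAA), and Ube2c held 6 CCAAT matches with 1 match to TTTGAA on the other strand, 29 to 24 bases before the start. In the comparison that follows, the 29 members with both motifs had a median log2 ratio of 0.46 between the libraries, and the 18 others one of 0.50. Some of the 18, such as Anln and Cks2, held 1 kind of motif. Whether the motifs bear on the ratios was not tested.

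The first comparison asked how the G2/M program of the promyelocytes differed after retinoic acid. The members were higher as a set in the retinoic acid library: their summed level was 5713 CPM with vehicle and 7646 CPM with retinoic acid, a log2 ratio of 0.42 (95% counting interval 0.42 to 0.43). These levels are UMIs at 3′ ends, which do not grow with transcript length, and the intervals cover counting error only. The median log2 ratio over the 54 members was 0.49 (quartiles 0.30 and 0.60), against 0.01 over the 5548 genes that reached 20 CPM in 1 library or both. Of the members 51 were higher and 3 lower, where 50.5% of all genes compared were higher. In all, 40 members were higher by at least 25%, as were 19.4% of genes, and 1 was lower by at least 20%, as were 20% of genes. The difference was broad and moderate: no member was at least 2-fold higher (3.03% of genes were) and 1, Pimreg, was at least 2-fold lower (5.05% of genes were).

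**Figure D1:**
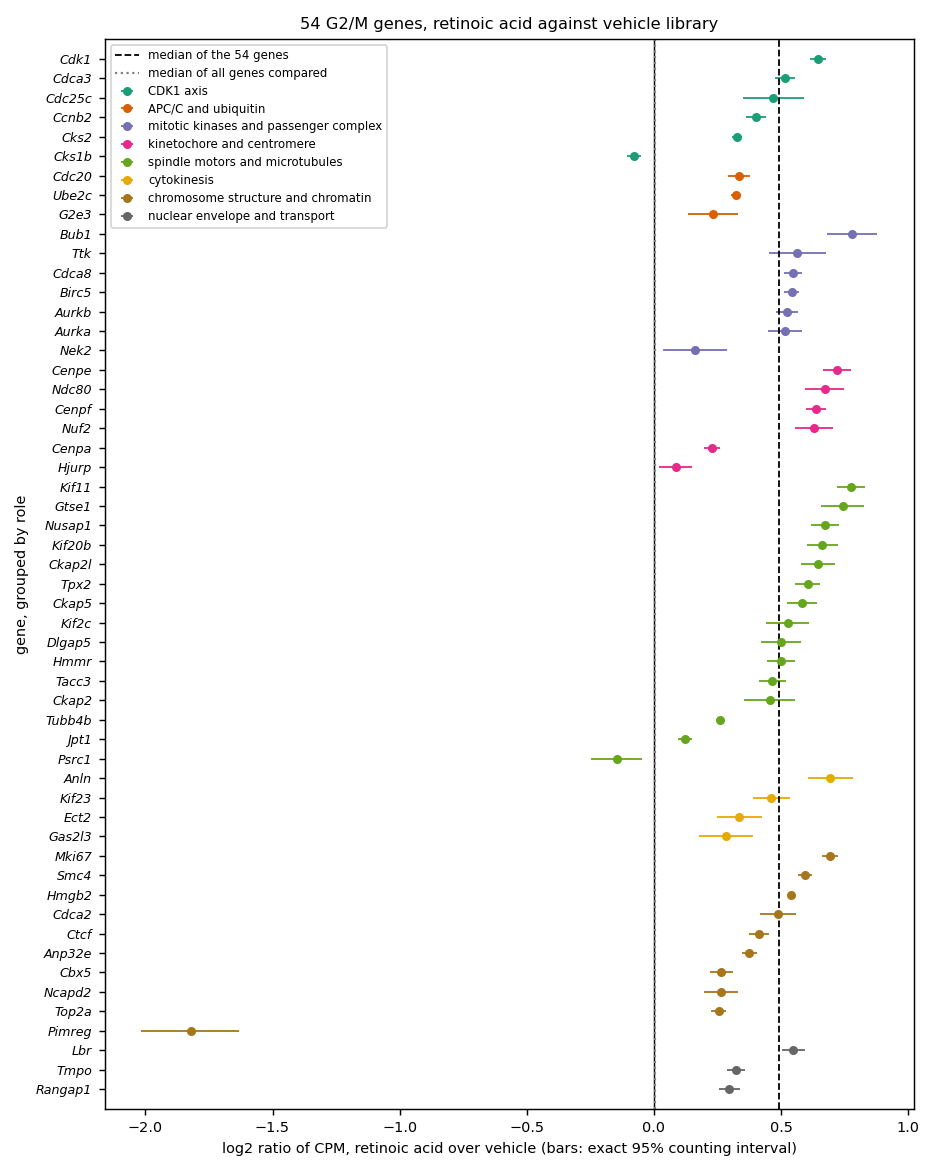
Log2 ratio of CPM, retinoic acid over vehicle, for each of the 54 genes, grouped by role (points; bars are exact 95% counting intervals). 51 points lie above 0 around the dashed median of 0.49, and Pimreg stands apart at -1.82.

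Within the CDK1 axis, 5 of 6 members were higher, with a median log2 ratio of 0.43. Cdk1, the kinase that drives entry into mitosis, was at 125 CPM with vehicle and 196 CPM with retinoic acid, a log2 ratio of 0.65 (0.61 to 0.68). Cks2, which encodes a small CDK-binding subunit and had the highest level of the axis, was at 355 and 445 CPM (0.32, 0.30 to 0.34). Its relative Cks1b, which also serves the SCF ubiquitin ligase in the removal of the CDK inhibitor p27, was at 201 and 190 CPM (-0.08, -0.11 to -0.05). Cks1b was thus slightly lower where the rest of its group was higher. Its sign depended on the scaling, with 0.0015 under TMM and 0.01 with the maturation genes left out of the totals. Reads of Cks1b could also match its near-identical copy Cks1brt.

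All 3 ubiquitin pathway members were higher. Ube2c, the ubiquitin-conjugating enzyme of the APC/C, was at 321 CPM with vehicle and 402 CPM with retinoic acid (0.32, 0.30 to 0.34). Cdc20, the APC/C activator, was at 77.3 and 97.5 CPM (0.33, 0.29 to 0.38), and the ubiquitin ligase gene G2e3 at 15.1 and 17.7 CPM (0.23, 0.13 to 0.33). The 7 mitotic kinases and passenger proteins were all higher, with a median of 0.54. Bub1, a spindle checkpoint kinase, had the largest ratio of all members, 12.6 CPM with vehicle and 21.6 CPM with retinoic acid (0.78, 0.68 to 0.88). Birc5, which encodes survivin and had the highest level of the group, was at 151 and 220 CPM (0.54, 0.51 to 0.57). The centrosomal kinase gene Nek2 had the smallest ratio, 9.50 and 10.6 CPM (0.16, 0.04 to 0.29). Aurka and Aurkb, the Aurora kinases of the spindle poles and of the centromere, gave nearly the same ratio, 0.51 and 0.52.

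The 6 kinetochore and centromere members were all higher, and as a group they had the largest median, 0.63. Cenpe, a kinetochore motor, was at 40.7 CPM with vehicle and 67.0 CPM with retinoic acid (0.72, 0.66 to 0.78). Ndc80 and Nuf2, partners in the complex that grips microtubules, had ratios of 0.67 and 0.63. The histone variant of the centromere and its loader were the exceptions in size. Cenpa, the centromeric histone H3, was at 147 and 172 CPM (0.23, 0.20 to 0.26). Hjurp, the chaperone that deposits it, was at 37.7 and 40.0 CPM (0.08, 0.02 to 0.15).

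Of the 15 spindle genes 14 were higher, with a median of 0.53. Kif11, the plus-end motor that pushes spindle poles apart, was at 42.2 CPM with vehicle and 72.2 CPM with retinoic acid (0.78, 0.72 to 0.83). Gtse1, a microtubule-binding protein, was at 17.8 and 29.7 CPM (0.74, 0.66 to 0.83). Tubb4b, a beta tubulin and the most abundant of the group, was at 664 and 795 CPM (0.26, 0.24 to 0.27). Jpt1 had a smaller ratio, 0.12 (0.10 to 0.15), at 213 and 231 CPM. Psrc1, which encodes a proline- and serine-rich spindle protein, was lower, at 15.9 and 14.3 CPM (-0.15, -0.25 to -0.05). Reads of Tubb4b could also match its pseudogenes.

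The 4 cytokinesis genes were all higher. Anln, the contractile ring scaffold anillin, was at 15.9 CPM with vehicle and 25.7 CPM with retinoic acid (0.69, 0.60 to 0.78). Kif23, a motor of the central spindle, was at 25.3 and 34.9 CPM (0.46, 0.39 to 0.53), and Gas2l3 at 12.6 and 15.4 CPM (0.28, 0.18 to 0.39). Of the 10 chromatin members 9 were higher. Hmgb2, a DNA-bending protein, was the most abundant member of the list. It was at 1187 CPM with vehicle and 1726 CPM with retinoic acid (0.54, 0.53 to 0.55). Its reads could also match pseudogenes of nearly the same sequence. Mki67, the proliferation antigen Ki-67 that coats mitotic chromosomes, was at 130 and 209 CPM (0.69, 0.66 to 0.72). Top2a, the topoisomerase that untangles sister chromatids, gave a smaller ratio of 0.25 (0.23 to 0.28).

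The nuclear envelope members were all higher. Lbr, the lamin B receptor that shapes the nuclei of granulocytes, was at 66.8 CPM with vehicle and 97.7 CPM with retinoic acid (0.55, 0.50 to 0.59). Tmpo, which encodes the lamina-associated LAP2 proteins, was at 111 and 139 CPM (0.32, 0.29 to 0.36). Rangap1, the activator of the Ran GTPase, was at 79.1 and 97.1 CPM (0.30, 0.25 to 0.34).

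One member went against the list by far. Pimreg (chr11:72042032-72047370, plus strand, GRCm38), the PICALM-interacting mitotic regulator, had 932 counts with vehicle and 293 with retinoic acid, or 9.40 and 2.66 CPM. Its log2 ratio was -1.82 (-2.02 to -1.63), which is 3.53-fold lower, and it lay between -1.84 and -1.73 over the 7 alternatives tried. At 20 CPM or more in either library no member was lower by 20%, since Pimreg is a low-level gene. In cells thinned to 5000 UMIs it was detected in 3.03% of vehicle and 1.11% of retinoic acid cells, and in 0 of the 181 and 131 cells without any UMI of the other G2/M genes, which allows a share of such cells with a UMI of up to 1.66% and 2.29%. Pimreg was itself mitotic in pattern: its vehicle level was 19.9 CPM in the cells rich in other G2/M transcripts, defined below, and 2.38 CPM in the rest.

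The genes of the same phases outside the list had like ratios. Of 63 other G2/M genes 62 were higher, with a median log2 ratio of 0.56. Plk1, Ccnb1 and Ccna2, the polo-like kinase and the cyclins of G2, had ratios of 0.50 (0.44 to 0.55), 0.44 (0.40 to 0.48) and 0.41 (0.36 to 0.46). Of 43 S phase genes 42 were higher, with a median of 0.58. Of the 12 regulators of G2/M promoters 11 were higher, 6 of them by at least 25%, with a median of 0.30, and 1, E2f4, was lower, at 77.2 CPM with vehicle and 48.3 CPM with retinoic acid (-0.68, -0.73 to -0.63). The transcription factor gene Foxm1 was at 5.67 CPM with vehicle and 10.7 CPM with retinoic acid (0.91, 0.76 to 1.06), and Mybl2, of the MuvB complexes, at 16.5 and 35.1 CPM (1.09, 1.01 to 1.17).

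The distribution over single cells was then examined in cells thinned to 5000 UMIs, 5282 vehicle and 6659 retinoic acid cells, with 194 and 481 shallower cells left out. The 54 genes together gave a median of 12 UMIs in a vehicle cell (quartiles 6 and 41) and 26 in a retinoic acid cell (quartiles 11 and 53). Unthinned, they took a median of 0.234% and 0.528% of a cell's UMIs. Vehicle cells fell into a large low group under 15 UMIs and a long upper range, while fewer retinoic acid cells were in the low group.

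**Figure D2:**
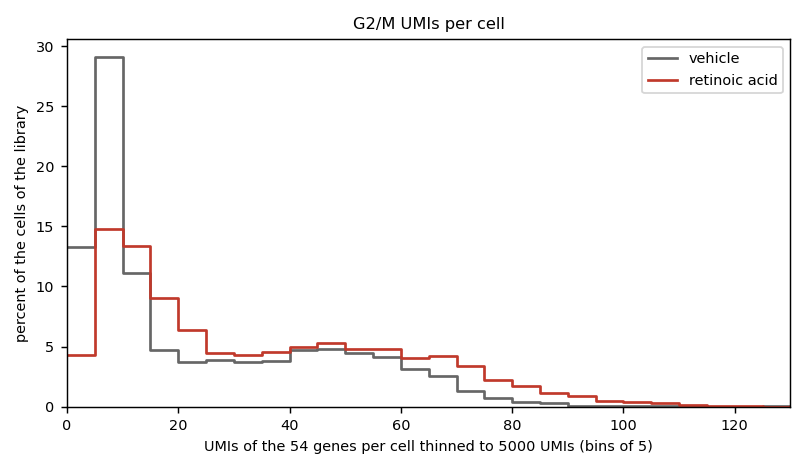
Percent of the cells of each library by the UMIs of the 54 genes per cell thinned to 5000 UMIs, in bins of 5 UMIs. The vehicle curve peaks at 5 to 10 UMIs; the retinoic acid curve is lower there and higher through the upper range, with medians of 12 and 26 UMIs.

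Single members showed the same shift. Cdk1 was detected in 30.7% of cells with vehicle (95% Clopper-Pearson interval 29.4 to 31.9%) and in 46.9% with retinoic acid (45.7 to 48.1%), against 1.10% and 7.63% of the cells without any UMI of the other G2/M genes. Mki67 was detected in 27.9% and 45.4% of cells, against 2.76% and 6.11%. The median depth before thinning was 17016.5 and 15152 UMIs in all cells and 12847 and 9392 UMIs in the cells without other G2/M UMIs. Psrc1 was detected in 7.55% and 6.01% of all cells and in 7.73% and 5.34% of those without other G2/M UMIs. In neither library did its share in all cells stand clear of its share in cells without other G2/M UMIs. Hmgb2 was found in 83.2% and 96.3% of cells and also in 61.9% and 84.0% of those without other G2/M UMIs, the most of the members named here; how much of that is free RNA was not tested.

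To set the number of cells in the program beside their level, a mitotic range was defined from the 63 other G2/M genes, none of which is a member. It holds thinned cells with more than 15 UMIs of those genes, the 75th percentile of the vehicle library. The range is a cut through a continuous score, with 349 vehicle cells (6.61%) and 503 retinoic acid cells (7.55%) within 1 UMI of it. With vehicle 1244 of 5282 cells lay in it (23.6%, 22.4 to 24.7%), and with retinoic acid 2539 of 6659 (38.1%, 37.0 to 39.3%). The difference was 14.6 percentage points (Newcombe interval 12.9 to 16.2), and it was 11.3 points at the 90th percentile and 18.6 points at the 50th.

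Inside the range the members differed less between the libraries. The range takes the cells of both libraries above the same cut of genes of the same phases, which by itself brings member levels closer together. The range therefore does not fully part the number of cells from the level per cell. Their summed level was 10867 CPM in vehicle and 11856 CPM in retinoic acid cells of the range, a log2 ratio of 0.13 (0.11 to 0.14), and the median ratio was 0.17 against -0.05 over 5712 genes. There 40 members were higher and 14 lower, where 43.6% of genes were higher. Outside the range the summed level was 2859 and 3609 CPM (0.34, 0.32 to 0.35), with a median of 0.32 and 43 members higher, where 47.1% of genes were. Bub1 kept a large ratio inside the range, 25.7 CPM in the vehicle and 40.2 CPM after retinoic acid (0.64, 0.38 to 0.91). Ube2c, the member tied most closely to the range in the vehicle (797 CPM inside and 70.4 CPM outside), was lower inside it after retinoic acid, at 733 CPM (-0.12, -0.17 to -0.07).

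The 3 members lower between the libraries, and Hjurp with the smallest ratio above 0, were then taken by cell state. Pimreg was lower both inside the range, 19.9 CPM in the vehicle and 5.28 CPM after retinoic acid (-1.91, -2.37 to -1.48), and outside it (-2.24, -3.44 to -1.29). Cks1b was lower inside the range, at 351 CPM and 270 CPM (-0.38, -0.46 to -0.30), and less so outside it (-0.13, -0.22 to -0.04). Psrc1 was level inside the range, at 19.5 CPM and 18.9 CPM (-0.04, -0.36 to 0.29), and lower outside it, at 15.6 and 9.95 CPM (-0.64, -0.91 to -0.39). Hjurp went in opposite directions: inside the range it stood at 68.5 CPM in the vehicle and 52.8 CPM after retinoic acid (-0.38, -0.55 to -0.20), and outside it at 21.0 and 29.9 CPM (0.51, 0.33 to 0.69). In both libraries Hjurp was higher inside the range than outside it, and the share of cells in the range also differed between the libraries. The part of each of these in its small overall ratio was not tested. Lbr depended least on the range among the higher members, with 85.0 CPM inside and 57.7 CPM outside in the vehicle, and was higher after retinoic acid on both sides (0.37 inside and 0.63 outside).

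The second comparison set the most granulated retinoic acid cells against the least. Cells were ranked by the share of their UMIs in Camp, Ngp, Ltf and Lcn2, genes of the secondary granules of neutrophils. The granule-poor cells are the lowest quartile group (1785 cells, median share 0.304%) and the granule-rich cells the highest (1785 cells, median share 12.1%). The 26 neutrophil maturation genes took 1.02% of the UMIs of the granule-poor and 22.0% of those of the granule-rich cells and were left out of the totals. Median depths differed, 17368 and 10028 UMIs, as did the share of cells with at most 0.1% mitochondrial UMIs, 5.99% and 7.84%. The 55 Mpo counts were all in granule-poor cells, where the mast cell list summed to 88.3 CPM and the eosinophil list to 100.2 CPM, against 18.9 and 7.84 CPM in granule-rich cells; the part of these cells was not tested. The part of depth and RNA quality in this comparison was not tested beyond the alternatives given.

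Summed over cells, the G2/M genes took nearly the same share of the UMIs outside the maturation list in granule-rich and granule-poor cells, while most single members were lower. The summed level was 7963 CPM in granule-poor and 7592 CPM in granule-rich cells, a log2 ratio of -0.07 (-0.08 to -0.06). This sum leans on Hmgb2, which was higher in granule-rich cells (0.24). It gave 53123 of the 251603 member counts in granule-poor and 29502 of the 112481 in granule-rich cells. The median over members was -0.17 against -0.02 over 5787 genes. There were 16 members higher and 38 lower, where 48.6% of genes were higher. Of the members 3 (Lbr, Hjurp and Mki67) were higher by at least 25%, as were 26% of genes, and 15 were lower by at least 20%, as were 26.4%. No member was 2-fold higher or lower, where 7.24% and 3.27% of genes were. The 15 of 54 are close to the background share, and the 3 are below it. With every cell given equal weight, so that deep cells count no more than shallow ones, the summed ratio was -0.23, the median over members -0.39 (all genes -0.03) and 32 members were lower by at least 20%. Putting all genes in the totals moved the median of all genes to -0.39 and that of the members to -0.51. Then 13 of the 16 higher members lay below 0, while Lbr, Hjurp and Mki67 stayed above it, 1 by at least 25%. In that setting 39 members were lower by at least 20%, but the median of all genes was itself past that limit. The share of all genes past the limits was not counted there or with equal weight.

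**Figure D3:**
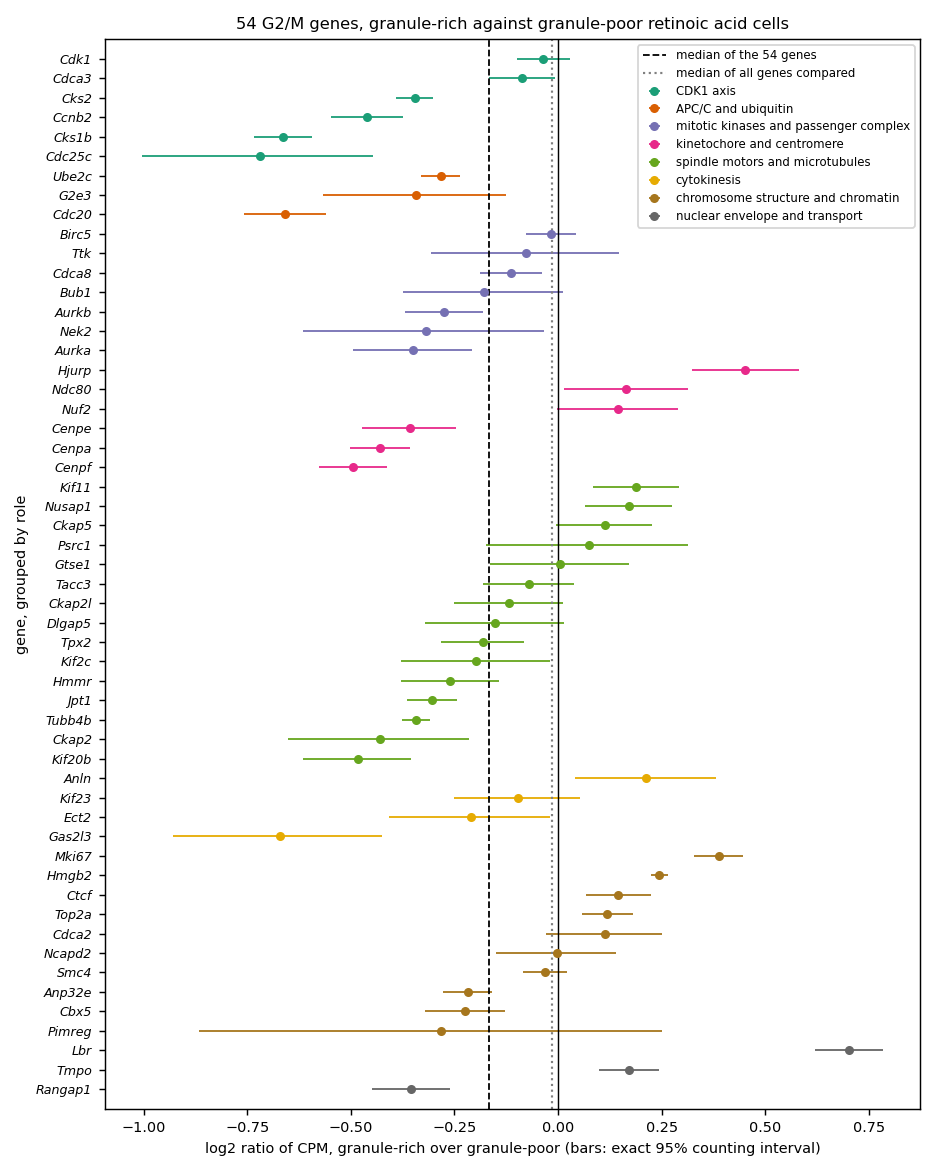
Log2 ratio of CPM, granule-rich over granule-poor retinoic acid cells, for each of the 54 genes, grouped by role (points; bars are exact 95% counting intervals; totals leave out the maturation genes). All 16 members of the first 3 roles lie below 0, and Lbr has the highest ratio at 0.70.

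Every member of the CDK1 axis, of the ubiquitin group and of the kinases was lower in granule-rich cells, with medians of -0.40, -0.34 and -0.18. With the cells split at the median share, however, Cdk1, Cdca3, Ube2c, Birc5, Bub1, Cdca8, Nek2 and Ttk of these 16 lay above 0. Cdc25c, the phosphatase that activates CDK1, had the lowest ratio of all, 15.5 CPM in granule-poor and 9.38 CPM in granule-rich cells (-0.72, -1.005 to -0.45). Cks1b was at 226 and 143 CPM (-0.66, -0.73 to -0.59), Ccnb2, a mitotic B-type cyclin, at 132 and 96.0 CPM (-0.46, -0.55 to -0.37), and Cks2 at 485 and 381 CPM (-0.35, -0.39 to -0.30). Cdk1 itself was nearly level, at 197 and 193 CPM (-0.04, -0.10 to 0.03). Cdc20 was at 112 and 71.2 CPM (-0.66, -0.76 to -0.56) and Ube2c at 421 and 346 CPM (-0.28, -0.33 to -0.24). Among the kinases Aurka was lowest, at 46.7 and 36.6 CPM (-0.35, -0.49 to -0.21), while Birc5 was at 224 and 221 CPM (-0.02, -0.08 to 0.04). The non-members Ccnb1 and Plk1 were also lower, with ratios of -0.60 (-0.70 to -0.51) and -0.46 (-0.58 to -0.34).

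The kinetochore group split into 3 higher and 3 lower members. Hjurp (chr1:88262471-88277633, minus strand, GRCm38) was at 39.9 CPM in granule-poor and 54.5 CPM in granule-rich cells (0.45, 0.32 to 0.58). Ndc80 was at 33.5 and 37.6 CPM (0.16, 0.01 to 0.31) and its partner Nuf2 at 36.0 and 39.8 CPM (0.14, -0.0022 to 0.29). The centromere proteins went the other way. Cenpf was at 151 and 107 CPM (-0.49, -0.58 to -0.41), Cenpa at 192 and 142 CPM (-0.43, -0.50 to -0.36) and Cenpe at 75.4 and 58.8 CPM (-0.36, -0.47 to -0.25).

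Of the spindle genes 5 were higher and 10 lower. Kif11 was at 69.3 CPM in granule-poor and 78.9 CPM in granule-rich cells (0.19, 0.08 to 0.29), and Nusap1, a spindle-associated microtubule bundler, at 66.4 and 74.7 CPM (0.17, 0.06 to 0.28). The intervals of the other 3 higher members, Ckap5 (0.11), Psrc1 (0.07) and Gtse1 (0.0047), held 0. Kif20b, a motor that acts in cytokinesis, was at 61.6 and 44.1 CPM (-0.48, -0.61 to -0.36), and Tubb4b at 849 and 670 CPM (-0.34, -0.38 to -0.31). Among cytokinesis genes Anln was at 25.5 and 29.5 CPM (0.21, 0.04 to 0.38), Kif23 at 36.5 and 34.1 CPM (-0.10, -0.25 to 0.05), and Gas2l3 at 18.4 and 11.5 CPM (-0.67, -0.93 to -0.43).

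Chromatin members were divided, 5 higher and 5 lower. Mki67 was at 197 CPM in granule-poor and 257 CPM in granule-rich cells (0.39, 0.33 to 0.45), and Hmgb2 at 1681 and 1991 CPM (0.24, 0.22 to 0.26). Ctcf, the insulator protein, was at 122 and 135 CPM (0.15, 0.07 to 0.22), Top2a at 200.1 and 217 CPM (0.12, 0.06 to 0.18), and Cdca2 at 39.3 and 42.5 CPM (0.11, -0.03 to 0.25). The lowest ratio was that of Pimreg, 3.23 and 2.63 CPM, with an interval that held 0 (-0.28, -0.87 to 0.25). Pimreg was therefore low in the retinoic acid library whether cells were granule-poor or granule-rich.

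Lbr (chr1:181815335-181843046, minus strand, GRCm38) stood out among the envelope genes and in the whole list. It was at 87.9 CPM in granule-poor and 143 CPM in granule-rich cells (0.70, 0.62 to 0.78), and over the 8 alternatives its ratio was between 0.36 and 0.81. Over the quartile groups of granule share it was at 87.9, 97.7, 110.5 and 143 CPM, higher in each quartile group than in the one before. Counted per cell instead, the quartile groups held 156, 163, 165 and 119 Lbr UMIs per 100 cells, since granule-rich cells held fewer UMIs in all. It was detected in 33.1% of granule-poor and 40.6% of granule-rich thinned cells, and in 30.5% of the retinoic acid cells without other G2/M UMIs. Of the other envelope members Tmpo was at 142 and 160 CPM (0.17, 0.10 to 0.24) and Rangap1 at 109.5 and 85.6 CPM (-0.35, -0.45 to -0.26).

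The course over granule share was not a straight line. The summed member level was 7963, 8014, 8951 and 7592 CPM over the quartile groups of the retinoic acid cells. By deciles it was 7802 CPM in the lowest and 9139 CPM in the eighth, and then 8528 CPM in the ninth and 5040 CPM in the highest decile, whose median depth was 8095 UMIs. The lower level of the highest quartile group thus came with its last decile. Per cell the quartile groups held 141, 134, 134 and 63.0 member UMIs on average. The S phase genes kept their level longest, with 3640 CPM in the ninth decile and 3049 CPM in the highest, against 2856 CPM in the lowest.

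**Figure D4:**
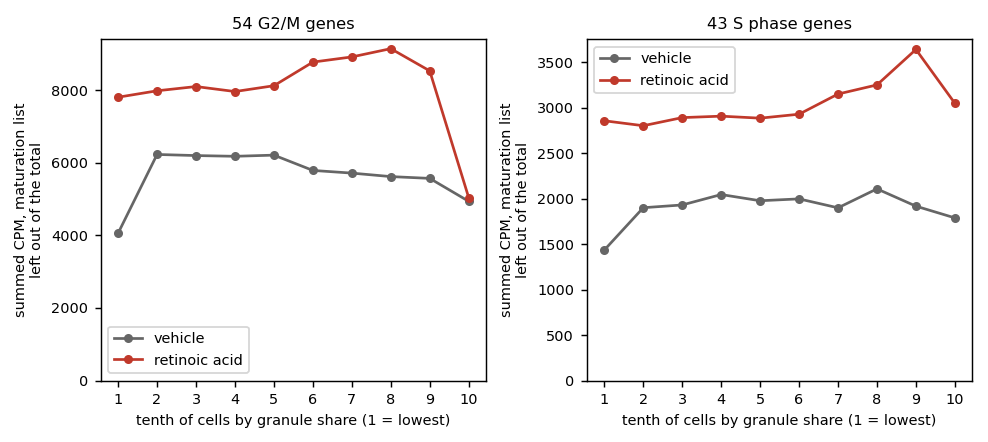
Summed CPM of the 54 G2/M genes (left) and of 43 S phase genes (right) in each decile of the cells by granule share, per library, with the maturation genes left out of the totals. In retinoic acid cells the G2/M sum is highest in the eighth decile, at 9139 CPM, and lowest in the highest decile, at 5040 CPM.

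Members differed in where they turned. Mki67 was at 197, 206, 256 and 257 CPM over the quartile groups, and Hmgb2 at 1681, 1750.0, 2069 and 1991 CPM. Cdc20 was at 112, 106, 112 and 71.2 CPM, and Cenpf at 151, 142, 154 and 107 CPM, so both were lowest in the last quartile group and between 106 and 112 CPM (Cdc20) or 142 and 154 CPM (Cenpf) before it. Cks1b was at 226, 209, 206 and 143 CPM. In the highest decile against the lowest, the median over members was -0.87 (all genes -0.04) and 47 were lower by at least 20%. With the cells split at the median share, the median over members was 0.055 (all genes -0.01) and none were lower by 20%. The share of all genes lower by that much was not counted for either split. The ratio of Mki67 turned to -0.31 between the outer deciles, and those of Lbr and Hjurp stayed above 0 under each of the 8 alternatives.

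**Figure D5:**
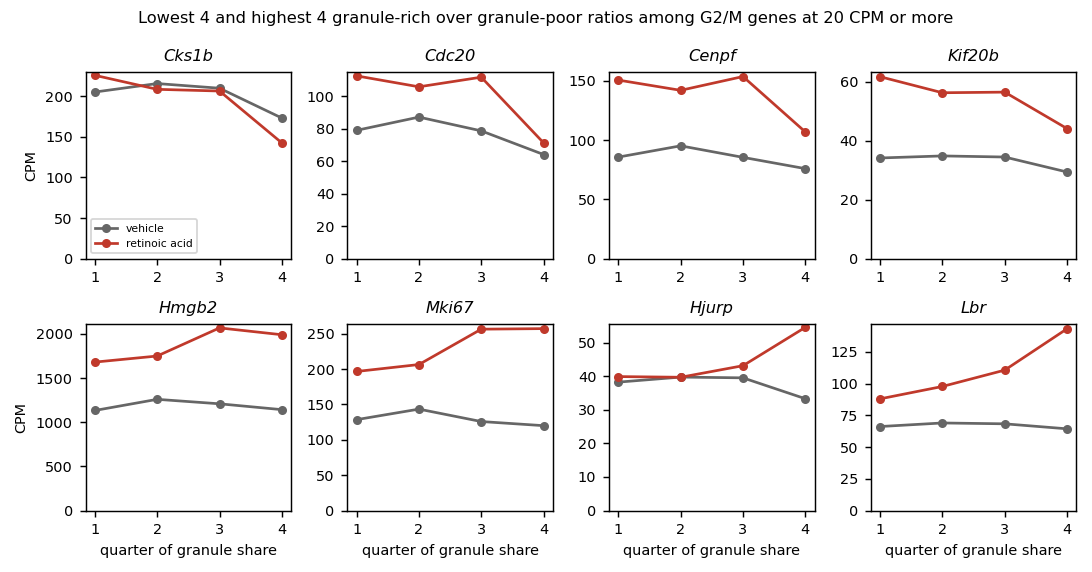
CPM of 8 genes over the quartile groups of granule share in both libraries (totals without the maturation genes): the 4 lowest and 4 highest granule-rich over granule-poor ratios among members at 20 CPM or more. Lbr is higher in each successive quartile group of the retinoic acid cells, from 87.9 to 143 CPM, and nearly flat in the vehicle; Cdc20 and Cenpf are lowest in the last quartile group.

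The vehicle cells, split in the same way, served as a reference with hardly any granule transcripts: the 1369 cells of the lowest quartile group had a median share of 0.00466% and the 1369 of the highest 0.114%. Depth differed along this ranking. The lowest vehicle decile (median share 0, median depth 11346 UMIs) had a summed member level of 4058 CPM, and the next decile (18329 UMIs) one of 6225 CPM. The highest decile (13922.5 UMIs) had 4936 CPM. The part of depth in this split was not tested. Over the vehicle quartile groups, the summed member level was 5655 CPM in the lowest and 5300 CPM in the highest (-0.09, -0.10 to -0.08). Here 9 members were higher and 45 lower, where 42.7% of genes were higher. No member was higher by 25% (5.15% of genes were) and 4 were lower by at least 20% (2.74% of genes were): Nek2, Cdc25c, Gas2l3 and G2e3, named after their values were seen, all under 20 CPM. Lbr was at 66.1 and 64.3 CPM (-0.04), without the difference seen between the retinoic acid quartile groups, though the difference between the libraries was not tested. Psrc1 had the highest ratio, with 15.3 and 18.6 CPM (0.28, 0.07 to 0.49).

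Granule-rich retinoic acid cells were fewer in the mitotic range. The range held 647 of 1667 granule-poor cells (38.8%, 36.5 to 41.2%) and 430 of 1586 granule-rich cells (27.1%, 24.9 to 29.4%), a difference of -11.7 points (-14.9 to -8.48). The corresponding vehicle shares were 23.6% and 20.7%, a difference of -2.86 points (-6.07 to 0.35). The size depended on the cells kept and on the cut. Over every kept cell without thinning, as a share of UMIs outside the maturation list, it was 41.8% against 30.1%. With the maturation genes removed before thinning it was 39.5% against 37.9%, a difference of -1.55 points, but 1298 granule-rich cells were then deep enough in place of 1586. At the 90th percentile cut the difference was -2.47 points and at the 50th -29.3 points.

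The granule-rich cells inside the range held more of the members, and those outside it held less. Inside, the summed level was 11544 CPM in granule-poor and 15288 CPM in granule-rich cells (0.41, 0.38 to 0.43), the median over members was 0.38 against 0.06 over 5918 genes, and 49 were higher and 5 lower, where 55% of genes were higher. Outside, the sum was 4386 and 3137 CPM (-0.48, -0.51 to -0.45) and the median over 53 members was -0.62 against -0.03, with 3 higher and 50 lower, where 47.9% of genes were higher. The range is set on all UMIs, so a granule-rich cell needs a higher G2/M level among its other genes to enter it, and the part of this in the values was not tested. With the maturation genes removed before thinning, which left 1298 granule-rich cells, the median inside was 0.34. Over all thinned cells, the 54 genes gave a median of 32 UMIs in a granule-poor cell (quartiles 15 and 53) and 11 in a granule-rich cell (6 and 41.75), while the 95th percentiles were 75.7 and 84 UMIs. Granule-rich cells thus had a lower median and lower quartiles but a higher 95th percentile.

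Single members showed both sides of that spread. Mki67 was higher in granule-rich cells inside the range (0.85, 0.73 to 0.97) and near level outside it (-0.18, -0.39 to 0.04). Cenpf was near level inside (-0.04, -0.20 to 0.12) and lower outside (-1.85, -2.42 to -1.34), and Cks1b was likewise -0.15 (-0.30 to 0.01) inside and -1.38 (-1.60 to -1.17) outside. Lbr (0.97 inside and 0.76 outside) and Hjurp (0.37 and 0.63) were higher on both sides, with intervals above 0, and the interval of the third member that was higher outside, Ctcf (0.12, -0.07 to 0.32), held 0.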

How the data were processed

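Single-cell 3′ RNA libraries (10x Genomics; the kit is given as v2 in the labels) of 1 vehicle and 1 retinoic acid sample were used. The values are UMI counts per gene and cell, deposited by the authors without normalisation. Per the submitters' processing notes they were made with Cell Ranger 4.0.0, and the notes name the builds mm10 and GRCm38.p4. The gene annotation, the strand setting and the cell-calling rule are not given in the sources used here.

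Cells were kept with at least 1000 UMIs, 500 genes and at most 10% mitochondrial UMIs, which left 5476 of 5786 and 7140 of 7416 barcodes. Scrublet (in scanpy 1.11.5) called 2 and 5 cells (0.0365% and 0.0700%) doublets, so few that the caller was taken not to have worked, and no cell was removed. Counts were summed and expressed as CPM. Ratios are log2 with 0.5 counts added to each sum, with an exact binomial interval conditional on both sums. Shares have exact Clopper-Pearson and their differences Newcombe intervals, all at 95%. They cover counting error only, since 1 library a group and cells of 1 library are no replicates. Genes with at least 20 CPM in either group formed the background, against which members higher by at least 25% or lower by at least 20% were counted. The granule-poor and granule-rich cells were those at or below the 25th and at or above the 75th percentile of the share of UMIs in Camp, Ngp, Ltf and Lcn2, and their totals left out 26 maturation genes. Cells were thinned once to 5000 UMIs with a fixed seed, and shallower cells were left out.

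The members and all gene lists were chosen with earlier results of these data known. The text gives values for the member of highest level and those of largest and smallest ratio in each role, the 5 largest and 5 smallest ratios, and every member on the other side of 0 from the median. It also gives them for Plk1, Ccnb1, Ccna2, Foxm1 and Mybl2. Further members were named to describe a role or a cell state after their values were seen. Of 64 other G2/M genes 63 were found. Coordinates of genes are from GENCODE M21 (GRCm38), matched by identifier. The last 300 bases of the members' transcripts were searched for matches to another gene over at least 90 bases at 95% identity. Hmgb2, Tubb4b, Ndc80 and Cks1b matched copies of themselves. Cenpf, Dlgap5, Ube2c and Rangap1 held stretches that matched 5 or more other genes. The effect of such matches on the counts was not tested. Alternatives changed the scaling (TMM, edgeR 4.0.16 in R 4.3.3), the weight of cells, the cell filters, the doublets, the genes in the totals, the split and the range. The scripts (Python 3.11.15, scipy 1.17.1) were tested on simulated data.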

Additional observations from a re-analysis of the deposited data

Results flagged for a closer look

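For 4 members the granule-rich over granule-poor log2 ratio had opposite signs in the 2 libraries, with counting intervals away from 0 in both. These differences between the libraries were not tested, and each rests on 1 library. Hjurp had a ratio of 0.45 in the retinoic acid and -0.20 in the vehicle library. Mki67 had 0.39 and -0.099, Ctcf 0.15 and -0.099, and Top2a 0.12 and -0.098. The opposite signs did not hold throughout: in the retinoic acid library Ctcf was -0.20 and Top2a -0.23 with all genes in the totals, Top2a -0.12 with equal weight for each cell, and Mki67 -0.31, Ctcf -0.03 and Top2a -0.58 in outer deciles, while Hjurp stayed above 0 under all 8 alternatives. The split is on a far smaller granule share in the vehicle, where the top 25% of cells had a median of 0.114% against 12.1% after retinoic acid.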

How the results depend on the processing

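No paired analysis was possible because a group was a single library. Of 95 recomputed values for the lists and shares 62 stayed within the interval of the main value (counts within 1.5 times) and 33 moved further. For a median over members that interval is the mean of the intervals of the middle-ranked members. It is not the counting error of the median itself. Between the libraries, the median log2 ratio over members was 0.57 under TMM (all genes 0.09), 0.59 with equal weight for each cell (all genes -0.0034) and 0.59 with the maturation genes out of the totals (all genes 0.10). The summed ratio was 0.50, 0.51 and 0.51 under these, and 0.41 with a mitochondrial limit of 5%. Members lower by at least 20% numbered 2 with equal weight and 0 among members at 20 CPM or more.

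For granule-rich over granule-poor cells the values depended on the split and the totals. The median was -0.51 with all genes in the totals (all genes -0.39), -0.39 with equal weight, 0.055 split at the median share and -0.87 in outer deciles. Members lower by at least 20% numbered 39, 32, 0 and 47 under these, and 1 was higher by at least 25% with all genes in the totals. The shares of all genes past these limits were not counted under these settings. The summed ratio was -0.41, -0.23, 0.084 and -0.63, then -0.094 with cells split by the maturation list, -0.058 without cells at or below 0.1% mitochondrial UMIs and -0.092 in thinned cells. Mki67 turned to -0.31 in outer deciles.

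The share in the mitotic range differed between the libraries by 11.3 points (90th percentile cut), 18.6 (50th), 18.8 (maturation genes out before thinning) and 24.7 (both of the last, added after seeing the data). Between granule-rich and granule-poor cells it differed by -2.47, -29.3, -1.55 and -15.2 points. The causes were not tested. Of the single members, 1 changed side of 0 between the libraries under TMM and 1 with the maturation genes left out (Cks1b in both). Up to 17 did so in the granule comparison, with the split at the median share. Recomputed values of single members stayed within the main counting interval 467 times, moved outside it 342 times and reversed 1 time. Between the libraries 41 of the 54 members moved under TMM, 43 with equal weight and 45 with the maturation genes left out. The unthinned shares were added after seeing the data. Depth limits members under about 10 CPM, such as Pimreg in the granule groups.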

Other observations

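Among the 63 other G2/M, 43 S phase and 12 regulator genes, the largest ratios between the libraries were those of Ccne2, the E2 cyclin of S phase entry, at 9.12 CPM with vehicle and 23.4 CPM with retinoic acid (log2 ratio 1.36), and Iqgap3, of the other G2/M genes, at 4.64 and 10.8 CPM (1.22). E2f4, a repressor of cell cycle genes in quiescent cells, had the lowest (-0.68). In granule-poor and granule-rich retinoic acid cells, Rrm2, the small subunit of ribonucleotide reductase, was at 119 and 240.2 CPM (1.01), and Slbp, the histone mRNA stem-loop binding protein, at 134 and 253 CPM (0.92), both higher in granule-rich cells. These genes were chosen after their values were seen, and none of these values was tested.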
